A study of Homo sapiens with 6 samples.

Results

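This report concerns 34 genes that cells are known to switch on when oxygen is short and that lie outside the glycolysis pathway, measured in lung cancer cells with and without knockdown of BCAT1. The members were named by gene symbol, and each matched 1 row of a table of 60664 genes. The rule set aside genes with a mean under 1 TPM (transcripts scaled to a fixed total, an abundance also scaled for gene length) over the libraries, and 0 of the 34 fell under it, so all 34 are among the 14286 genes tested. The cells were 67R, a line derived from NCI-H1975 lung adenocarcinoma cells in which resistance to ASK120067, an EGFR inhibitor, was raised by stepwise exposure. All 6 libraries came from this line. The NC group (3 libraries) was transfected with a negative control siRNA and the siBCAT1 group (3 libraries) with siRNA against BCAT1, the cytosolic enzyme that moves the amino group between branched-chain amino acids and α-ketoglutarate. The methods print a pair of BCAT1 siRNA targets and give the name siBCAT1, which the library titles carry, to siBCAT1-2, so by name the knockdown rests on a single siRNA. The methods describe an ordinary humidified incubator, and the labels name no low-oxygen treatment, no inhibitor at sampling and no time after transfection. Nothing in the labels says that the 3 libraries of a group came from separate cultures, so p-values measure only the spread between these libraries, which may be technical.

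Hypoxia-inducible factors (HIFs) are transcription factors with an oxygen-labile alpha subunit and a stable partner, ARNT. Prolyl hydroxylases, which use oxygen and α-ketoglutarate, mark the alpha subunit for the VHL ligase. When hydroxylation slows, HIF binds DNA at a short core motif and raises genes for glucose use, acid export, removal of mitochondria, storage of glycogen and lipid, vessel growth and matrix remodelling. Many of these genes also answer to other signals, and cancer cells often express them without low oxygen.

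TPM values carry no read counts, so the depth of each library is unknown, and the precision of a value rests on the spread between 3 libraries. The 6 columns summed to between 992512 and 995593 TPM, and between 23152 and 25043 genes per library were above 0. The knockdown was visible in every library, with BCAT1 between 29.8 and 42.7 TPM in NC and between 7.10 and 8.78 TPM in siBCAT1 cells. The line was checked against markers: KRT8, KRT18, KRT7 and KRT19, keratins of simple epithelia, had NC means of 1225, 462, 922 and 91.3 TPM, whereas EPCAM was at 1.27 TPM. CD3E and DCN were at 0 in all 6 libraries, and PTPRC, PECAM1 and VWF had means of at most 0.110 TPM in either group. CDH5, the other endothelial marker, was at 0.773 ± 0.0850 and 1.70 ± 0.850 TPM (mean and SD, n = 3) with overlap, and CD68, listed for blood cells, rose from 33.3 ± 3.99 to 54.9 ± 4.35 TPM (mean and SD, n = 3). Of the 6 epithelial markers 5 fell in siBCAT1 cells, among them CDH1, the adhesion protein E-cadherin, from 19.7 ± 8.34 to 3.10 ± 1.95 TPM (mean and SD, n = 3). EPCAM went the other way, at 1.27 ± 0.327 and 2.33 ± 0.334 TPM (mean and SD, n = 3). Every siBCAT1 library was above every NC library for it, but it did not pass the test described below. Of the 5 fibroblast markers, COL1A1 and PDGFRB fell, COL3A1 was at 0.260 ± 0.113 and 0.600 ± 0.168 TPM, below the filter, and COL1A2 was at 243 ± 6.86 and 211 ± 29.8 TPM (mean and SD, n = 3). The part of these shifts in the results below was not tested.

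Most of the hypoxia-inducible genes were lower after BCAT1 knockdown. Of the 34 genes, 18 fell, 2 rose and 14 did not pass the test (limma on log2(TPM + 1), adjusted p under 0.05 over all tested genes). Of all tested genes 10.4% fell by this rule, 16.7% rose and 27.1% did either, against 52.9% and 5.88% of the 34 genes. The median log2 fold change of the 34 genes was -0.43, beside 0.04 over all tested genes, and 29 of the 34 values were negative. Every siBCAT1 library was below every NC library for 22 of the 34 genes, where the share in the whole table was 18.0%, and above it for 4, where the share was 26.1%. A fall of at least 1 on the log2 scale together with the adjusted p was met by 8 of the 34 genes and by 1.57% of all tested genes. Fold changes on this scale understate the change of weakly expressed genes, so levels in siBCAT1 cells are also given as a percent of the NC mean. Where values in 3 libraries are listed, they stand in the order of replicates 1, 2 and 3.

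**Figure D1:**
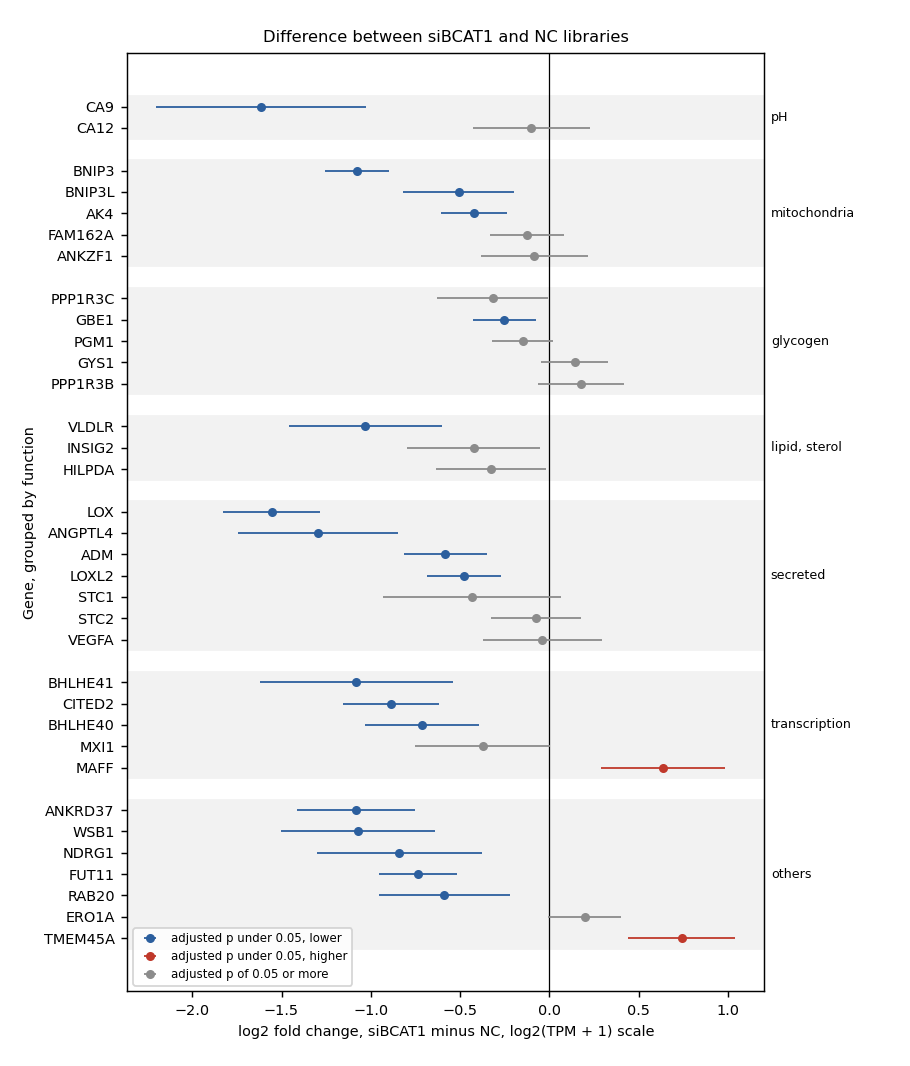
Log2 fold change of each of the 34 genes (siBCAT1 minus NC, on the log2(TPM + 1) scale), grouped by function, with limma's 95% confidence interval, which is not adjusted for the number of genes. The 18 genes that fell (blue) span 6 functions besides the unclassed group, MAFF and TMEM45A rose (red), and several grey intervals end short of 0 although the adjusted p was above 0.05.

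The HIF core motif was common in the promoters of these genes. RefSeq promoter windows on GRCh38.p14, from 250 bases before to 50 bases after each annotated start, were on hand for 24 of the 34 genes. ACGTG or GCGTG, read on both strands, stood in at least 1 window of 23 of these 24 genes (95.8%), of 70.5% of the 9975 tested genes with a window and of 52.4% of all 27305 genes with one. ACGTG alone, on either strand, stood in the windows of 18 of the 24 genes (75.0%) and of 32.8% of the tested genes with a window. Of the 13 genes with a window that fell, 11 held ACGTG, and of the 11 others 7 did, MAFF included. TMEM45A was the gene whose window held neither form. The motif CACGTG contains ACGTG on both strands and is also the E-box that BHLHE40, BHLHE41 and the MYC and MAX family read. It stood in 9 of the 24 genes and in 12.6% of the tested genes with a window. Each match is a match of letters and not a measured binding site, and a gene can have more than 1 window.

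The stretches below are the ACGTG matches nearest the annotated start in the genes that fell by at least 1 on the log2 scale or rose and that hold the motif. They are shown because these genes carry the largest differences, and the last, MAFF, holds the motif and went up. Each runs 5′ to 3′ on the strand of the gene, is 30 bases long and has the ACGTG letters of either strand in capitals.
CA9: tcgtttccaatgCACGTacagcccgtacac
LOX: gtaactttgcaaACGTGccagaaagtttaa
ANGPTL4: ggaaagaagagtCACGTctcccacggttcg
ANKRD37: cagtgtttgtgtACGTGcggccgtggcggg
BHLHE41: ggtacgttccgCACGTGagctgggtgctgg
BNIP3: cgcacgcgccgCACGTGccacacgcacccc
WSB1: ggctgtgacgtCACGTGgccgcgcccctgc
MAFF: agggcctccgcCACGTGaccccagtgtttg
On GRCh38.p14 the stretch of CA9 is at chr9:35673898-35673927 on the plus strand, and its motif begins 18 bases before the annotated start, the nearest of the 8. The stretch of LOX is at chr5:122078284-122078313 on the minus strand, with the motif 42 bases before the start. That of BHLHE41 is at chr12:26125067-26125096 on the minus strand, 47 bases before the start. The stretch of WSB1 is at chr17:27294045-27294074 on the plus strand, 57 bases before the start, and that of MAFF at chr22:38202928-38202957 on the plus strand, 80 bases before the start. The motifs of BNIP3, at chr10:131982039-131982068 on the minus strand, and ANKRD37, at chr4:185396686-185396715 on the plus strand, lie 133 and 143 bases before the start. The motif of ANGPTL4, at chr19:8363909-8363938 on the plus strand, is the farthest of the 8, at 234 bases.

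The levels of the 34 genes covered a wide range. NC means ran from 3.50 TPM for VLDLR to 190 TPM for BNIP3, with a median of 29.1 TPM, above the median of 13.6 TPM over all tested genes. After BNIP3 came LOXL2 at 182 ± 18.4, NDRG1 at 135 ± 40.4, STC2 at 129 ± 10.3 and CITED2 at 112 ± 15.9 TPM (mean and SD, n = 3), and NDRG1, STC2 and CITED2 overlapped each other in their libraries. At the other end 10 genes had NC means under 10 TPM. Across the 34 genes the level in NC and the fold change showed little relation (Pearson r = 0.04 across genes, which share the same 6 libraries). The median coefficient of variation between libraries was 13.6% in NC and 10.4% in siBCAT1 cells. The sum over the 34 genes was 1579 ± 149 TPM in NC and 1151 ± 51.5 TPM after knockdown (mean and SD, n = 3).

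**Figure D2:**
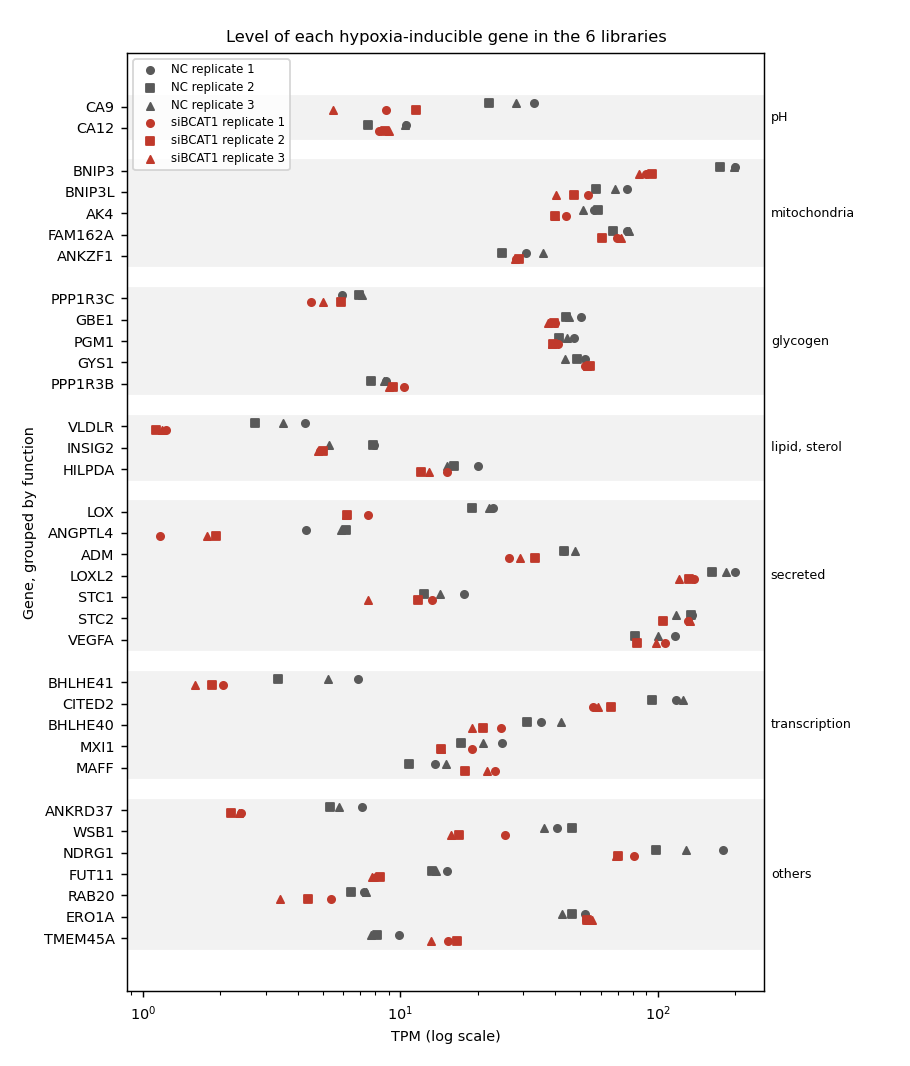
TPM (log axis) of each of the 34 genes in the 6 libraries, grouped by function, with NC libraries in grey, siBCAT1 libraries in red and the marker shape giving the replicate number. LOX, ANGPTL4, ANKRD37, VLDLR, CA9 and BNIP3 have the widest gaps between the lowest NC and the highest siBCAT1 library, and the points of VEGFA, STC2 and ANKZF1 intermingle.

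The carbonic anhydrases of the cell surface split. CA9 and CA12 encode membrane enzymes that turn carbon dioxide and water into bicarbonate and protons on the outer face of the cell, and CA9 is widely used as a marker of hypoxia. CA9 (ENSG00000107159, chromosome 9, 35673856 to 35681159 in GRCh38) was at 32.95, 22.1 and 28.2 TPM in the NC libraries and at 8.84, 11.5 and 5.48 TPM after knockdown. The groups did not overlap, and siBCAT1 replicate 3 was the lowest. CA9 fell to 31.0% of the NC mean, with a log2 fold change of -1.62 (SE, the standard error, 0.25, adjusted p = 0.00399), the largest fall of the 34 genes on this scale with all libraries. Without siBCAT1 replicate 3 it was -1.36, and the value of LOX was then -1.51. CA12 was at 9.50 ± 1.73 TPM in NC and 8.70 ± 0.383 TPM after knockdown (mean and SD, n = 3), the groups overlapped, and its log2 fold change of -0.10 had a 95% interval of -0.43 to 0.23. Of the 5 tested genes listed as relatives or partners in pH control, SLC4A2, a chloride and bicarbonate exchanger, fell (log2 fold change -0.50, adjusted p = 0.00810), and CA13, CA11 and SLC4A7 did not pass the test.

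The mitophagy receptors BNIP3 and BNIP3L both fell. They sit in the outer mitochondrial membrane and tether mitochondria to the autophagy machinery. BNIP3 (ENSG00000176171, chromosome 10, 131966455 to 131982013 in GRCh38) was at 199.98, 174 and 197 TPM in the NC libraries and at 89.8, 94.6 and 84.4 TPM after knockdown. Its libraries lay close together within each group, with a coefficient of variation of 7.58% in NC, and the highest siBCAT1 library was far under the lowest NC library. BNIP3 fell to 47.1% of the NC mean (log2 fold change -1.08 ± 0.08 SE, adjusted p = 0.000265). The annotation lists 39 pseudogene copies of BNIP3, of which the highest had a mean of 3.48 TPM, and reads shared with them make its value uncertain. BNIP3L was at 75.7, 57.5 and 68.1 TPM in the NC libraries and at 53.4, 47.1 and 40.2 TPM after knockdown, with a gap of a few TPM between the groups. Its log2 fold change was -0.51 (SE 0.13, adjusted p = 0.0291), and the adjusted p rose to 0.108 without NC replicate 1, 0.0980 without NC replicate 3, 0.0880 without siBCAT1 replicate 2 and 0.0894 without siBCAT1 replicate 3.

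Other mitochondrial members moved less. AK4, an adenylate kinase of the mitochondrial matrix, fell from 55.6 ± 3.79 to 41.2 ± 2.35 TPM (mean and SD, n = 3), a log2 fold change of -0.42 (SE 0.08, adjusted p = 0.00859). Its copy AK4P1 had a log2 fold change of -0.50 (adjusted p = 0.0576), and reads could be split between them. FAM162A, a mitochondrial protein, had a log2 fold change of -0.13 (95% interval -0.33 to 0.08). ANKZF1, which releases stalled chains in ribosome quality control and moves to mitochondria under stress, had one of -0.08 (95% interval -0.39 to 0.22). The groups overlapped for both. Among the 9 tested relatives and partners, 1 fell and 3 rose. PINK1, the kinase that marks damaged mitochondria, fell (log2 fold change -0.32, adjusted p = 0.0131), whereas BCL2L13, another mitophagy receptor (0.73, adjusted p = 0.00190), and the adenylate kinase AK3 (0.67, adjusted p = 0.00385) were among those that rose. FUNDC1, also a mitophagy receptor, had a log2 fold change of 0.24 and an adjusted p of 0.104. The adenylate kinases AK4 and AK3 of the matrix thus went opposite ways, at 55.6 and 7.17 TPM in NC cells.

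The glycogen genes changed little. GBE1, the branching enzyme, was the 1 of 5 that fell, from 46.5 ± 3.25 to 38.9 ± 1.36 TPM (mean and SD, n = 3), with a log2 fold change of -0.25 (SE 0.08, adjusted p = 0.0442). Its adjusted p lay between 0.0821 and 0.118 without NC replicate 1, NC replicate 3 or any of the siBCAT1 replicates. PGM1, which interconverts glucose phosphates, and PPP1R3C, which targets protein phosphatase to glycogen, had log2 fold changes of -0.15 and -0.32 (adjusted p = 0.174 and 0.118). Every siBCAT1 library was below every NC library for both. For PPP1R3C the nearest were 5.91 TPM in siBCAT1 replicate 2 and 5.94 TPM in NC replicate 1. GYS1, the muscle-type glycogen synthase, went from 52.3, 48.6 and 43.8 TPM in the NC libraries to 52.1, 54.5 and 52.9 TPM after knockdown, with overlap and a log2 fold change of 0.14 (95% interval -0.05 to 0.33). PPP1R3B, another targeting subunit, was at 8.77, 7.72 and 8.64 TPM in the NC libraries and at 10.4, 9.39 and 9.03 TPM after knockdown, above every NC library, with a log2 fold change of 0.18 (95% interval -0.06 to 0.42). Of the 14 tested partners in glycogen turnover 2 fell and 2 rose. The phosphorylase PYGL (-0.25, adjusted p = 0.0147) and the phosphatase subunit PPP1CA (-0.29, adjusted p = 0.00751) fell, and the primer glycogenin GYG1 (0.39, adjusted p = 0.0165) and the phosphorylase PYGB (0.20, adjusted p = 0.0264) rose, with log2 fold changes in parentheses.

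In lipid and sterol handling, VLDLR, a receptor that takes up triglyceride-rich lipoproteins, fell furthest. It was at 4.28, 2.73 and 3.50 TPM in the NC libraries and at 1.23, 1.13 and 1.19 TPM after knockdown, without overlap and with a small spread in siBCAT1 cells. VLDLR fell to 33.8% of the NC mean (log2 fold change -1.03 ± 0.18 SE, adjusted p = 0.00703). HILPDA, a lipid droplet protein that inhibits the lipase PNPLA2, was at 17.1 ± 2.52 and 13.4 ± 1.64 TPM (mean and SD, n = 3; log2 fold change -0.33, adjusted p = 0.107). INSIG2, which holds sterol sensors in the endoplasmic reticulum, was at 7.01 ± 1.5 and 4.89 ± 0.0954 TPM (mean and SD, n = 3; log2 fold change -0.42, adjusted p = 0.0902). In neither gene did the groups overlap, but for HILPDA they nearly met, at 15.23 TPM in NC replicate 3 and 15.22 TPM in siBCAT1 replicate 1. Among the 11 tested partners PNPLA2 fell (log2 fold change -0.50, adjusted p = 0.0130). The related receptor LRP8 had a log2 fold change of 0.01 (95% interval -0.22 to 0.25).

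Among the secreted factors 4 of 7 fell, LOX and ANGPTL4 furthest. LOX (ENSG00000113083, chromosome 5, 122063195 to 122078360 in GRCh38), the lysyl oxidase that cross-links collagen and elastin, was at 22.97, 19.0 and 22.2 TPM in the NC libraries and at 7.49, 6.23 and 6.13 TPM after knockdown. The lowest NC library was at more than the sum of any pair of siBCAT1 libraries. LOX fell to 30.9% of the NC mean, with a log2 fold change of -1.56 (SE 0.12, adjusted p = 0.000286). LOXL2, a relative with the same activity, was at 199, 163 and 184 TPM in the NC libraries and at 137, 132 and 120.42 TPM after knockdown, and fell by less (log2 fold change -0.48 ± 0.09 SE, adjusted p = 0.00820). LOXL1 and LOXL3 did not pass the test, and LOXL4 was below the filter on low values.

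ANGPTL4 and ADM fell as well. ANGPTL4, an inhibitor of lipoprotein lipase, was at 4.29, 6.17 and 5.88 TPM in the NC libraries and at 1.17, 1.92 and 1.78 TPM after knockdown, which is 29.8% of the NC mean, the lowest percent of the 34 genes (log2 fold change -1.30 ± 0.19 SE, adjusted p = 0.00334). ADM, the vasodilator peptide adrenomedullin, was at 43.2, 43.1 and 47.9 TPM in the NC libraries and at 26.4, 33.25 and 29.1 TPM after knockdown (log2 fold change -0.58 ± 0.10 SE, adjusted p = 0.00582). The groups overlapped for neither gene. RAMP1, a co-receptor of this peptide family, rose (log2 fold change 0.54, adjusted p = 0.00502), and CALCRL, RAMP2 and RAMP3, which build the adrenomedullin receptors, were below the filter.

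VEGFA, the best known angiogenic target of HIF, was among the 3 secreted factors that did not pass the test. It was at 116, 81.7 and 100.34 TPM in the NC libraries and at 107, 83.2 and 98.4 TPM after knockdown, so the groups overlapped and replicate 2 was the lowest in each. Its log2 fold change was -0.04, with a 95% interval of -0.37 to 0.29, and these libraries do not exclude a change within this interval. STC2, a secreted glycoprotein, had a log2 fold change of -0.08 (95% interval -0.33 to 0.18). Its relative STC1 was at 14.7 ± 2.69 and 10.8 ± 2.98 TPM (mean and SD, n = 3), with overlap (log2 fold change -0.43, 95% interval -0.93 to 0.06). Of the other vascular growth factors, PGF, placental growth factor, fell from 18.4 ± 1.45 to 8.34 ± 1.84 TPM (mean and SD, n = 3; log2 fold change -1.07, adjusted p = 0.00297), VEGFB had a log2 fold change of -0.23 (95% interval -0.55 to 0.09), and VEGFC was below the filter.

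The transcription factors went in opposite directions. BHLHE40 and BHLHE41 are repressors that bind the E-box and act on the circadian clock. BHLHE40 was at 35.0, 31.1 and 42.1 TPM in the NC libraries and at 24.65, 21.0 and 19.0 TPM after knockdown (log2 fold change -0.71 ± 0.14 SE, adjusted p = 0.00924). BHLHE41 was at 6.88, 3.35 and 5.24 TPM in the NC libraries and at 2.05, 1.86 and 1.59 TPM after knockdown (log2 fold change -1.08 ± 0.23 SE, adjusted p = 0.0139). Neither gene overlapped between groups, but NC replicate 2 of BHLHE41 was close to the siBCAT1 libraries, and the adjusted p was 0.0569 without NC replicate 3, 0.0510 without siBCAT1 replicate 2 and 0.0550 without siBCAT1 replicate 3. CITED2, which competes with HIF for the coactivators EP300 and CREBBP, was at 117, 94.6 and 125 TPM in the NC libraries and at 56.0, 65.5 and 58.6 TPM after knockdown. It fell to 53.4% of the NC mean without overlap (log2 fold change -0.89 ± 0.11 SE, adjusted p = 0.00210). EP300 itself fell (log2 fold change -0.56, adjusted p = 0.0192), and CREBBP had a log2 fold change of -0.13 (95% interval -0.33 to 0.07).

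MAFF, a small Maf protein that pairs with stress-responsive factors, rose. It was at 13.7, 10.8 and 15.1 TPM in the NC libraries and at 23.3, 17.85 and 21.7 TPM after knockdown, with every siBCAT1 library above every NC library (log2 fold change 0.64 ± 0.15 SE, adjusted p = 0.0188). The adjusted p was 0.0649 without NC replicate 1, 0.0778 without siBCAT1 replicate 1 and 0.0720 without siBCAT1 replicate 3. Its relative MAFK had a log2 fold change of 0.03 (95% interval -0.24 to 0.29), and MAFG was below the filter. MXI1, a partner of MAX that opposes MYC, was at 21.0 ± 3.85 and 15.9 ± 2.67 TPM (mean and SD, n = 3; log2 fold change -0.37, adjusted p = 0.129), with overlap. In the same network MAX (0.34, adjusted p = 0.00173), MYC (0.43, adjusted p = 0.0209) and MXD3 (0.52, adjusted p = 0.0246) rose and MXD4 fell (-0.48, adjusted p = 0.0257), with log2 fold changes in parentheses.

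Of the 7 genes with other functions 5 fell. ANKRD37, an ankyrin repeat protein, was at 7.10, 5.35 and 5.78 TPM in the NC libraries and at 2.40, 2.20 and 2.37 TPM after knockdown (log2 fold change -1.08 ± 0.14 SE, adjusted p = 0.00219). WSB1, a substrate adaptor of a ubiquitin ligase, was at 40.7, 46.45 and 36.1 TPM in the NC libraries and at 25.45, 16.9 and 15.7 TPM after knockdown (log2 fold change -1.07 ± 0.18 SE, adjusted p = 0.00598). Both genes were lower in each siBCAT1 library, with siBCAT1 replicate 1 of WSB1 above the other siBCAT1 libraries. FUT11, a fucosyltransferase, was at 15.2, 13.3 and 13.8 TPM in the NC libraries and at 8.08, 8.37 and 7.76 TPM after knockdown (log2 fold change -0.73 ± 0.09 SE, adjusted p = 0.00198). The relatives WSB2 (-0.48, adjusted p = 0.00666) and FUT10 (-0.56, adjusted p = 0.0181) also fell, with log2 fold changes in parentheses.

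NDRG1 and RAB20 fell with less certainty. NDRG1, a stress-responsive gene, was at 178, 98.6 and 129 TPM in the NC libraries and at 80.9, 69.8 and 68.6 TPM after knockdown, so the spread within NC was wide and the groups did not overlap (log2 fold change -0.84 ± 0.20 SE, adjusted p = 0.0197). The adjusted p of NDRG1 was 0.0708 without NC replicate 3, and 0.0550, 0.0781 and 0.0770 without siBCAT1 replicates 1, 2 and 3. RAB20, a small GTPase of endosomes, was at 7.26, 6.46 and 7.39 TPM in the NC libraries and at 5.37, 4.4 and 3.42 TPM after knockdown (log2 fold change -0.59 ± 0.16 SE, adjusted p = 0.0307). Its groups did not overlap either, and its adjusted p was 0.106, 0.0521 and 0.101 without NC replicates 1, 2 and 3 and 0.0884 and 0.0764 without siBCAT1 replicates 2 and 3.

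TMEM45A and ERO1A did not go down. TMEM45A, a transmembrane protein, was at 9.90, 8.13 and 7.71 TPM in the NC libraries and at 15.3, 16.6 and 13.15 TPM after knockdown, without overlap, and rose to 175% of the NC mean (log2 fold change 0.74 ± 0.13 SE, adjusted p = 0.00628). ERO1A, the oxidase that drives disulfide formation in the endoplasmic reticulum, was at 52.0, 46.4 and 42.3 TPM in the NC libraries and at 52.6, 53.0 and 55.6 TPM after knockdown. Its siBCAT1 libraries were above the NC libraries by a narrow margin, with a log2 fold change of 0.20 (95% interval -0.01 to 0.40). P4HB, the disulfide isomerase that ERO1A reoxidises, rose from 343 ± 15.9 to 484 ± 25.5 TPM (mean and SD, n = 3; log2 fold change 0.49, adjusted p = 0.00143).

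**Figure D3:**
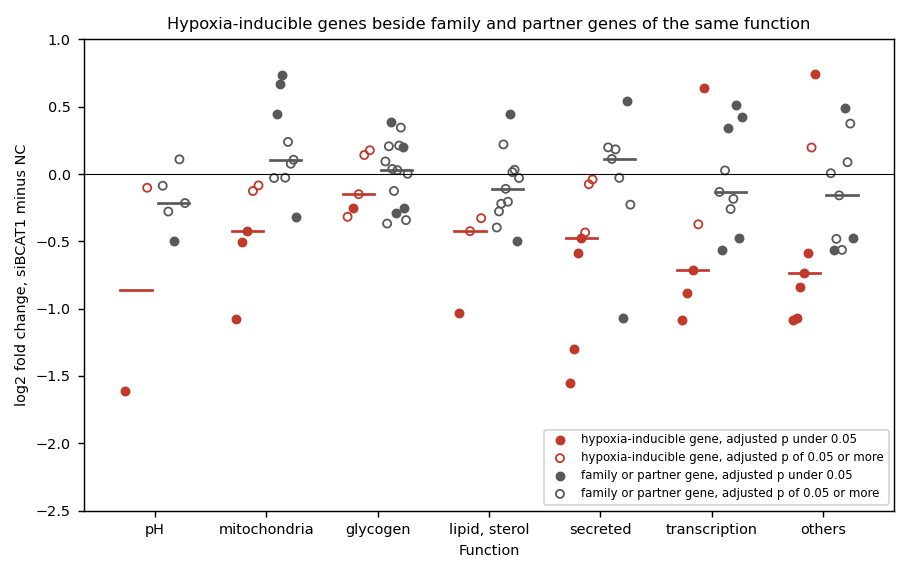
Log2 fold change (siBCAT1 minus NC, on the log2(TPM + 1) scale) of the 34 hypoxia-inducible genes (red) and of the 64 tested family and partner genes (grey) by function, with filled points at an adjusted p under 0.05, open points at 0.05 or more, and bars at the medians. The red medians lie below the grey medians in all 7 groups, and the grey points scatter on both sides of 0.

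The family and partner genes as a list did not share the direction. Of the 64 tested, 10 fell and 11 rose, shares of 15.6% and 17.2% beside 10.4% and 16.7% of all tested genes, and their median log2 fold change was -0.01. In a list of 30 other hypoxia-inducible genes, 28 were tested, 8 fell and 2 rose, with a median log2 fold change of -0.35. The falls were led by EGLN3 (-1.49), the phosphofructokinase regulator PFKFB4 (-1.30), the collagen lysyl hydroxylase PLOD2 (-1.07) and CCNG2 (-0.97), a cyclin of cell cycle exit, with log2 fold changes in parentheses and adjusted p of 0.000645, 0.00110, 0.000478 and 0.0398. PLOD1, a relative of PLOD2, rose (0.40, adjusted p = 0.00242), as did NARF (0.42, adjusted p = 0.0117). The count of falls in this list depends on the processing, at 4 without NC replicate 1 or NC replicate 3, 5 without siBCAT1 replicate 3 and 13 with median-ratio scaling.

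Of the genes for HIF subunits, their hydroxylases and VHL, HIF1A and EGLN3 fell and the 6 others did not pass the test. These are RNA levels, and HIF protein and activity were not measured in these libraries. HIF1A, an alpha subunit, was at 159, 158 and 135 TPM in the NC libraries. After knockdown it was at 99.9, 93.9 and 86.4 TPM, without overlap (log2 fold change -0.68, adjusted p = 0.00195). EGLN3, a prolyl hydroxylase that is itself induced by HIF, was at 21.8, 22.3 and 22.4 TPM in the NC libraries and at 5.83, 8.91 and 7.28 TPM after knockdown. Of the other prolyl hydroxylases, EGLN1 was lower in every siBCAT1 library (log2 fold change -0.36, 95% interval -0.62 to -0.09, adjusted p = 0.0570). EGLN2 was higher in every one (log2 fold change 0.20, 95% interval -0.01 to 0.40, adjusted p = 0.134). EGLN1 and EGLN3 are also counted in the list of other hypoxia-inducible genes. EPAS1, another alpha subunit, and ARNT had log2 fold changes of -0.04 (95% interval -0.33 to 0.24) and 0.06 (95% interval -0.20 to 0.32).

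The libraries of a group were not alike for these genes. The median of the 34 genes, relative to the mean of the NC libraries, was 0.11, -0.13 and 0.02 on the log2 scale in NC replicates 1, 2 and 3 and -0.33, -0.46 and -0.54 in siBCAT1 replicates 1, 2 and 3. All 3 siBCAT1 medians were below the lowest NC median. NC replicate 2 was the lowest NC library for 24 of the 34 genes and for 37.0% of all tested genes, and NC replicate 1 was the highest for 23 and for 42.9%. Within the siBCAT1 group replicate 3 was the lowest for 20 of the 34 genes and for 43.5% of all tested genes. The residual level of BCAT1 did not order the libraries in the same way: NC replicate 3 had the lowest BCAT1 of its group, at 29.8 TPM, and siBCAT1 replicate 2 that of its group, at 7.10 TPM. The share of TPM from mitochondrial transcripts was between 10.2% and 10.4% in NC and between 9.33% and 10.2% in siBCAT1 libraries.

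**Figure D4:**
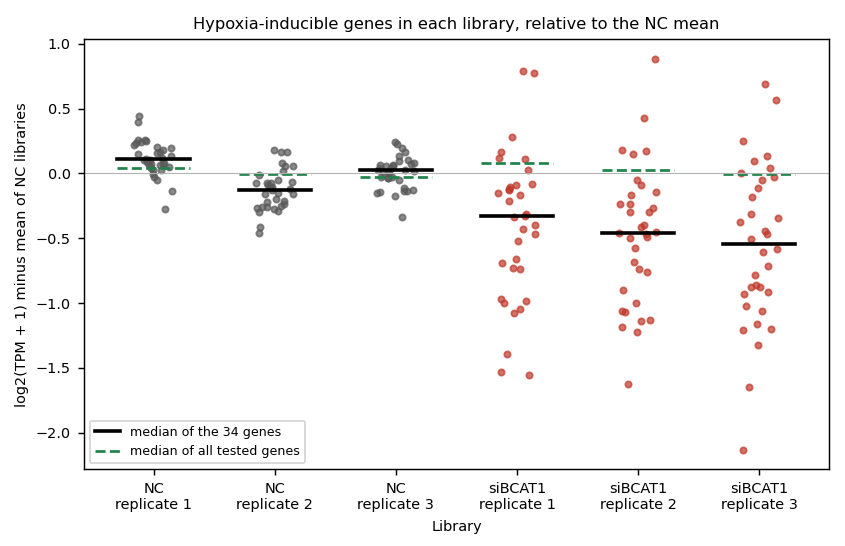
Each point is 1 of the 34 genes in 1 library, as log2(TPM + 1) minus the mean of the 3 NC libraries for that gene, with the median of the 34 genes (black) and of all tested genes (dashed green). The black medians are between -0.13 and 0.11 in NC and between -0.54 and -0.33 in siBCAT1 libraries, while the green medians stay between -0.03 and 0.08.

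Reads of overlapping genes could enter some of these values, since nothing says whether strand was used in counting the stranded libraries. The annotated spans, introns included, of CA9 and ARHGEF39, on the opposite strand, share 2011 bases, and ARHGEF39 rose (log2 fold change 0.90, adjusted p = 0.00219). Those of ANKRD37 and UFSP2, also on opposite strands, share 1089 bases, and UFSP2 rose (log2 fold change 0.31, adjusted p = 0.0447). MAFF shares 4924 bases with PLA2G6 on the opposite strand, which had the same sign as MAFF (log2 fold change 0.42, adjusted p = 0.121). On the same strand, LOXL2 shares 39546 bases with ENTPD4 (log2 fold change -0.30, adjusted p = 0.361). The whole span of HILPDA lies within AC010655.4, also on its strand, at 1.18 and 1.11 TPM in NC and siBCAT1 cells. The part of shared reads in these values was not tested. LOX shares 12376 bases of its span with SRFBP1 on the opposite strand, which was at 10.04 ± 1.81 and 11.1 ± 0.639 TPM (mean and SD, n = 3) and did not pass the test. VEGFA overlaps AL136131.3, an antisense transcript at 20.8 and 13.2 TPM in NC and siBCAT1 cells (adjusted p = 0.337).

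The 3′ UTRs of the 34 genes were searched for the words that pair with the seeds of the siRNAs whose targets the methods print, in 1 GENCODE 29 transcript per gene. By name these libraries were made with siBCAT1-2, and the word for siBCAT1-1 is given beside it. The word TGAGCA, for siBCAT1-2, was found in 10 of the 34 genes (29.4%) and in 33.0% of the 11567 tested genes with a 3′ UTR, and the medians of the 34 genes were -0.43 with it and -0.44 without it. The word GACAAT, for siBCAT1-1, was found in 8 of the 34 genes (23.5%) and in 20.9% of these tested genes. The 8 genes were AK4, BNIP3, CA12, ERO1A, LOX, PPP1R3B, VLDLR and WSB1. Their median log2 fold change was -0.73, and that of the 26 genes without it was -0.43. Over all tested genes with a 3′ UTR the medians were 0.02 with TGAGCA and 0.05 without it, and -0.06 with GACAAT and 0.06 without it. Of the 18 genes that fell, 13 lack TGAGCA and 13 lack GACAAT. Those lacking both are CA9, ANGPTL4, ANKRD37, BHLHE41, CITED2, FUT11, BHLHE40, RAB20, ADM, BNIP3L and GBE1. The part of these words in the falls was not tested.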

How the data were processed

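The authors trimmed the reads with fastp, mapped them to GRCh38 with HISAT2 and assembled transcripts with StringTie, as the submitters' processing notes name; versions and annotation are not given in the sources used here. The deposited values are TPM per gene and library, rounded to 2 decimals, beside a gene length. The unit was read from the values. Libraries were grouped by their titles. No pair of libraries had equal values for more than 1.42% of the tested genes.

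The fit used log2(TPM + 1) of the 14286 genes that averaged 1 TPM or more across all libraries. Moderated two-sided tests with a variance trend came from limma 3.58.1 (R 4.3.3), Benjamini-Hochberg adjusted over these genes, with 0.05 as the threshold. With 3 libraries against 3 an exact permutation test of 1 gene cannot go below 0.1. The fit was also tested on simulated data.

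The 34 members and the other gene lists were chosen with earlier results of these data known, so they were given no set test. Values in every library were given for members past the threshold whose log2 fold change was 0.5 or more in size and for those against the main direction; of the other lists, up to 4 of the largest rises and falls each and the relatives of described members. Positions are from GENCODE 29 (GRCh38), promoters from RefSeq (GRCh38.p14); 10 members had no entry there (NDRG1, FUT11, RAB20, BNIP3L, LOXL2, STC1, HILPDA, ANKZF1, VEGFA, PPP1R3B). Alternatives were no filter, a minimum of 5 TPM, 0.1 added in place of 1, a replicate block, median-ratio scaling, quantile normalization, a lowess correction for gene length (span 0.5), no variance trend, and each library left out in turn. Python 3.11.15 with pandas 2.3.3, numpy 2.4.6 and matplotlib 3.10.9 was used for the other steps. Some genes of the family and partner list are counted but not reported here by name.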

Additional observations from a re-analysis of the deposited data

How the results depend on the processing

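Of the 20 hypoxia-inducible genes past the threshold, 14 stayed past it under every alternative in which they were tested. The other 6 (BHLHE41, NDRG1, RAB20, BNIP3L, GBE1 and MAFF) lost it in some without changing sign. With a minimum of 5 TPM only 30 of the 34 genes were tested, of which 14 fell. ANGPTL4, ANKRD37, VLDLR and BHLHE41 were left out there by their low level. Of the 14 others 4 passed it in some: INSIG2 without NC replicate 3 (adjusted p = 0.0237) and with the length correction, MXI1 with the replicate block (0.0275), HILPDA with the replicate block (0.0300), median-ratio scaling and the length correction, and PGM1 with quantile normalization (0.0436) and the length correction. The count of falls lay between 13 and 17 with a library left out and between 13 and 21 otherwise. The count of rises lay between 1 and 2 with a library left out, and was 1 without NC replicate 1, siBCAT1 replicate 1 or siBCAT1 replicate 3, where MAFF was lost, and 1 with no filter on low values. The median log2 fold change lay between -0.53 and -0.40 with a library left out. The replicate numbers pair the libraries only weakly, with correlations of deviations of 0.08, 0.10 and 0.12 for the same number, although each library correlated best with its own number. With the replicate block 20 of the 34 genes fell, 2 rose, and 15 of the other hypoxia-inducible genes fell in place of 8. That count was 4 with no filter and 13 with median-ratio scaling, and lay between 4 and 10 with a library left out. It was 12 with quantile normalization and 12 with the length correction.

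Over all tested genes 1483 fell and 2382 rose. With no filter 960 fell. With a library left out between 796 and 1430 fell and between 1435 and 2276 rose, the lowest count of falls without NC replicate 1. For family and partner genes the falls lay between 5 and 9 and the rises between 5 and 9 with a library left out. BCAT1 stayed between -2.28 and -2.03. The sign of some uncalled log2 fold changes turned with a library left out. VEGFA lay between -0.17 and 0.078 (above 0 without NC replicate 1 or siBCAT1 replicate 2), EPAS1 between -0.14 and 0.059 (NC replicate 1 or siBCAT1 replicate 3), ANKZF1 between -0.22 and 0.037 (NC replicate 3), STC2 between -0.14 and 0.036 (siBCAT1 replicate 2) and ARNT between -0.015 and 0.14 (below 0 without siBCAT1 replicate 1). The cause was not tested. TPM values hold no depth, so counting error is not included anywhere.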
